A study of Mus musculus with 4 samples.

Results

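Cycling CD8 T cells are killer T cells caught while preparing for or passing through division. Here they were the CD8 T cells of CT26 tumours with at least 2 unique molecular identifiers (UMIs, 1 per captured RNA molecule) of Mki67, Top2a and Birc5 together per 10000 UMIs of the cell. A CD8 T cell had at least 2 UMIs of Cd3d and Cd3e, at least 2 UMIs of Cd8a and Cd8b1, no Cd4 UMI, no Foxp3 UMI and under 10 UMIs of the macrophage genes C1qa, C1qb and C1qc per 10000. The members were thus selected on their own measured UMIs of these genes, and no gene of the rule is a finding. The rule kept 839 cells of 2964 CD8 T cells and of 27447 cells in all. Liproxstatin replicates 1 and 2 held 223 and 307 of them, and control replicates 1 and 2 held 97 and 212. The other 2125 CD8 T cells, under the threshold in the same libraries, are set beside them.

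The groups were 2 libraries of CT26 tumours from Balb/c mice that received liproxstatin-1, a small-molecule inhibitor of ferroptosis, for 8 days, and 2 libraries of such tumours from control mice. CT26 is a colon carcinoma line of Balb/c origin. All mice were 9 weeks old, and every library was made from cells held on magnetic beads against CD45, the common leukocyte surface protein, with a droplet kit that reads the 3′ end of transcripts. The labels do not say what control mice were given, how many animals a library holds, or whether replicates are separate animals, so p-values reflect how far these libraries scatter, and that scatter may be technical only.

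A CD8 T cell that recognises its antigen enters the cell cycle under the E2F transcription factors, which switch on the genes of DNA replication (G1/S). Later the MuvB complex, with B-MYB and FOXM1, switches on the genes of mitosis (G2/M). Many of them are controlled through a short promoter element called the cell cycle genes homology region (CHR) and neighbouring CCAAT boxes. In tumours dividing CD8 T cells are known both among less differentiated cells that keep the factor TCF1 (Tcf7) and among cells with inhibitory receptors such as PD-1 (Pdcd1) and TIM-3 (Havcr2).

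The promoters of the 3 genes behind the threshold and of 3 further mitotic genes are shown because these genes are read out together in the cells described here. The 3 further genes were picked for holding a CHR match in this stretch, and the same stretch of the mitotic genes Ccnb1, Plk1, Ccnb2 and Aurka, not shown, held none. Each sequence is the 120 bases before the annotated start, 5′ to 3′ on the gene's strand, from RefSeq on GRCm38.p6. Capitals mark the CHR letters TTTGAA or TTCAAA and the CCAAT letters CCAAT or ATTGG. Mki67 (the proliferation antigen Ki-67) lies at chr7:135716380-135716499 on the minus strand, Top2a (topoisomerase II alpha, which untangles replicated DNA) at chr11:99024190-99024309 on the minus strand and Birc5 (survivin, of the chromosomal passenger complex) at chr11:117849117-117849236 on the plus strand. Cdk1 (the mitotic kinase) lies at chr10:69352913-69353032 on the minus strand, Cdc20 (an activator of the anaphase-promoting complex) at chr4:118437344-118437463 on the minus strand and Ube2c (its ubiquitin-conjugating enzyme) at chr2:164769809-164769928 on the plus strand.
Mki67: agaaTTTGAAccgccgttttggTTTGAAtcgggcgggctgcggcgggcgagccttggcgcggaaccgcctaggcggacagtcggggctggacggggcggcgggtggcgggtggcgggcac
Top2a: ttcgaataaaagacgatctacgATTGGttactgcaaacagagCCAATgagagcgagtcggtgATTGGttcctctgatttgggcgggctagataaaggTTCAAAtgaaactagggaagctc
Birc5: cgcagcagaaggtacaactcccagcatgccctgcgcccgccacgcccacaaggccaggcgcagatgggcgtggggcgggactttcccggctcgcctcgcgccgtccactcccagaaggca
Cdk1: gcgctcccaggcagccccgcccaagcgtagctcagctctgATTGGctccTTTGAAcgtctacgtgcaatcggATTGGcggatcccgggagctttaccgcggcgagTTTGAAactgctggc
Cdc20: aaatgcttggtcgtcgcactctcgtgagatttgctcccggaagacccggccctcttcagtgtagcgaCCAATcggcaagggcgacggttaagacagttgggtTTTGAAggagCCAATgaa
Ube2c: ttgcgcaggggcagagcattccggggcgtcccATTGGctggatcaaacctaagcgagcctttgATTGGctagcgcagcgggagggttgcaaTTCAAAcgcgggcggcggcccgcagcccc
The Mki67 window held 2 CHR matches, Top2a 1 CHR and 3 CCAAT matches, Cdk1 2 of each, and Cdc20 and Ube2c 1 CHR and 2 CCAAT matches each, whereas the 120 bases of Birc5 held neither.

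Over windows of 300 bases, from 250 before to 50 after the start, the CHR letters on either strand were found in 27 of 35 windows of the G2/M list (77.1%; 33 of its 40 genes were matched). They were found in 3 of 35 windows of the G1/S list (8.57%; 30 of 35 genes matched) and in 17.9% of all 32851 windows. CCAAT boxes were found in 77.1% of the G2/M windows, 60% of the G1/S windows and 37.4% of all windows, and both elements in 62.9%, 5.71% and 6.95%. The letters of the 2 motifs can overlap by 1 base at their ends, and a match describes letters only.

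The cells carried what the rule asked for, and RNA of other lineages as well. Mki67 stood at 533 and 462 CPM (a gene's UMIs over all UMIs of the summed cells, scaled to the usual common total) in cycling cells of liproxstatin replicates 1 and 2 and at 457 and 417 CPM in those of control replicates 1 and 2. In other CD8 T cells Mki67 stood between 14.9 and 16.0 CPM. Top2a was detected in 92.2% to 94.8% and Birc5 in 64.1% to 73.1% of the cycling cells of a library. Cd8a was detected in 96.9% to 100% and Cd3e in 99.5% to 100% of them. These values follow from the rule.

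Markers of other lineages that the rule did not use were not at 0, and those of macrophages were the highest. The macrophage list was summed over the 6 of its 9 genes outside the rule, so without C1qa, C1qb and C1qc. It gave 656 and 450 CPM in cycling cells of liproxstatin libraries and 616 and 817 CPM in those of controls. Lyz2 and Apoe were the largest parts. Lyz2 was detected in 89.2% and 86.6% of members in liproxstatin and 94.8% and 100% in control libraries. At least 10 UMIs per 10000 of all 9 macrophage genes together were held by 19 and 12 members in liproxstatin and 7 and 25 in control libraries. The neutrophil genes (6 genes) summed to 140 and 19.9 CPM against 9.20 and 162 CPM, mostly S100a8 and S100a9, and the natural killer cell genes (5 genes) to 45 and 48.3 CPM against 55.6 and 48.0 CPM. CD4 T cell genes outside the rule summed to 39.6 and 37.8 CPM against 40.4 and 32.6 CPM, and gamma-delta T cell genes to 14.2 and 27.4 CPM against 34.8 and 21.6 CPM. B cell, dendritic cell, mast cell, fibroblast, CT26-like tumour and red cell genes summed to at most 13.0 CPM in each library. The 4 tumour genes together held 26 and 14 UMIs in liproxstatin and 13 and 13 UMIs in control libraries, with Krt8 and Cldn4 at 0.

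Members were deeper than their neighbours. Their median was 20730 and 18474 UMIs in liproxstatin libraries and 24618 and 23434 UMIs in control libraries, against 11507 and 10190 UMIs and 12727 and 13056 UMIs in other CD8 T cells. The cells with the top scores of Scrublet, a doublet caller, were marked in each library, in a number set by its barcode count. Of these, 15 and 9 were members in liproxstatin libraries and 2 and 10 in control libraries, and they were kept. Just inside the threshold, from 2 to 2.5 UMIs per 10000, lay 100 cells with a median of 3 UMIs of the 3 genes. Just outside, from 1.5 to 2, lay 171 cells with a median of 2. Of the members 427 held 10 or more per 10000, and of the other CD8 T cells 1174 held none. Libraries held 83129874 to 168597163 UMIs in 4138 to 9299 barcodes, and pairs of libraries shared 4 to 22 barcodes.

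About 1 in 4 to 1 in 3 tumour CD8 T cells was over the threshold in every library. The share was 24.6% in liproxstatin replicate 1 and 29.4% in liproxstatin replicate 2, and 33.9% in control replicate 1 and 29.2% in control replicate 2. Exact binomial 95% intervals, which cover counting error only, were 21.8% to 27.6%, 26.6% to 32.2%, 28.4% to 39.7% and 25.9% to 32.6% in the same order. The groups overlapped. Their means were 27.0% ± 3.37 in liproxstatin and 31.5% ± 3.36 in control libraries (SD, n = 2 each), a difference of -4.54 points (two-sided exact permutation p = 0.6667, where 2 libraries against 2 cannot give less than 0.3333). The difference was -6.92 points without either liproxstatin replicate 2 or control replicate 2, and -2.16 and -2.17 points without liproxstatin replicate 1 and control replicate 1. As a share of all kept cells, cycling CD8 T cells were 2.71% and 3.53% of liproxstatin and 2.5% and 3.20% of control libraries.

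The same threshold gave lower shares among the other lymphocytes of each library, a difference that was not tested. Regulatory T cells reached 21.3% and 22% in liproxstatin and 16.1% and 18.5% in control libraries, and NK cells 18.3% and 15.9% against 17.9% and 17.6%. Conventional CD4 T cells reached 9.86% and 20% against 15.8% and 18.5%, from 6 to 21 cycling cells a library. Macrophages reached 23.9% and 20.5% in liproxstatin and 29.5% and 31.3% in control libraries, without overlap (exact p = 0.3333). The adjusted p over the 6 gates was 1.0 for each. Neutrophils, which no longer divide once mature, still gave 5.47% and 7.96% against 13.3% and 7.65%. At their median of 2886 to 3802 UMIs a single molecule passes the threshold, while CD8 T cells had medians of 11272 to 14934 UMIs. After each CD8 T cell was thinned to 5000 UMIs, and 32, 45, 9 and 18 shallower cells were left out, the share was 40.8% and 43.5% in liproxstatin and 47.3% and 45.4% in control libraries, since a single UMI then suffices.

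**Figure D1:**
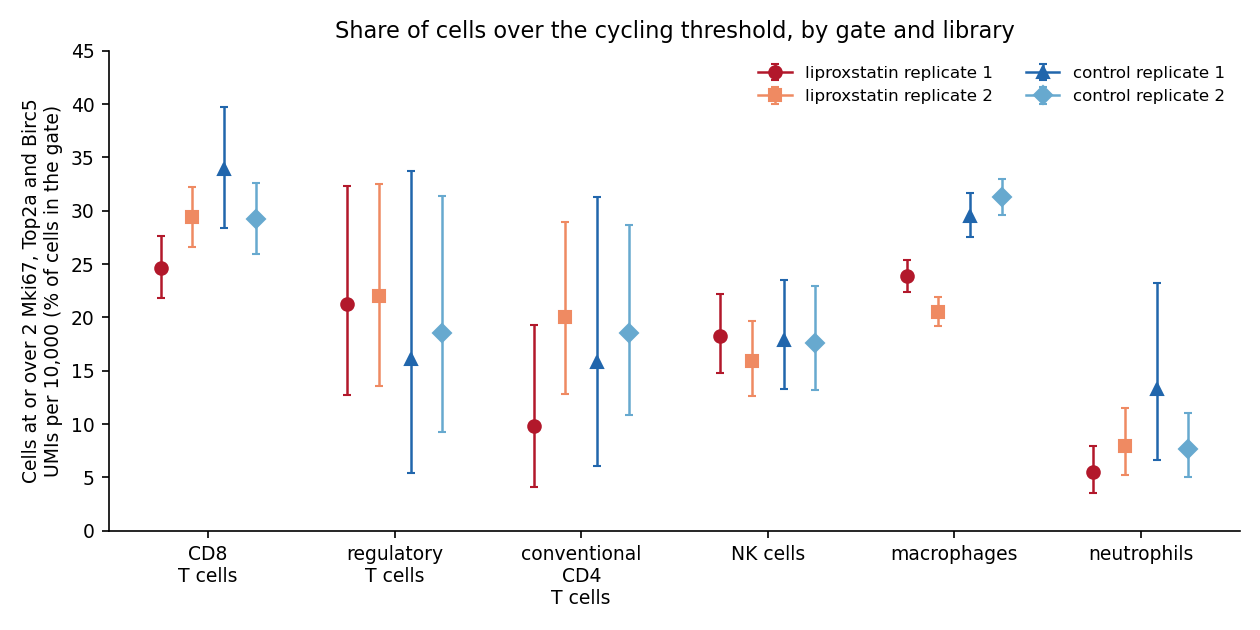
Percent of the cells of each gate that were at or over 2 UMIs of Mki67, Top2a and Birc5 per 10000 UMIs, 1 point per library with its exact binomial 95% interval. CD8 T cells lie between 24.6% and 33.9%, neutrophils between 5.47% and 13.3%.

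Relative to other CD8 T cells of the same library, the members held more RNA of the mitosis, histone and replication genes. These contrasts follow the rule and carry no test. The G2/M genes, 40 genes other than the 3 of the rule, summed to 4457 and 4511 CPM in cycling cells of liproxstatin libraries and 4139 and 4551 CPM in those of controls, 10.7-fold to 13.8-fold the level of other CD8 T cells. The 18 replication-dependent histone genes were 11.6-fold to 15.9-fold higher, and the 35 G1/S genes 2.79-fold to 3.39-fold. Nucleotide synthesis genes were 1.28-fold to 1.38-fold and oxidative phosphorylation genes 1.10-fold to 1.13-fold higher in each library.

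Within G2/M, Ccna2 (cyclin A2) was 5.49 to 6.88 and Hmmr (a spindle protein) 5.74 to 6.35 log2 units above the other CD8 T cells. Cdk1 was 4.02 to 4.25 units above and Cenpa, the centromeric histone, 1.2 to 1.90. Within G1/S the range ran from the ribonucleotide reductase subunit Rrm2 (4.4 to 5.23 units) and the replication initiation factor Cdc45 (2.77 to 3.66) down to Mcm2, a subunit of the replicative helicase (0.67 to 1.21), and Slbp, which binds histone mRNA (0.81 to 1.01). Among regulators E2f8 (3.66 to 4.49), E2f7 (3.15 to 3.69) and Foxm1 (3.27 to 3.80) were above other CD8 T cells, whereas Ccnd2, the cyclin D2 gene, was below in every library (-0.74 to -0.62). Histone mRNAs largely lack the poly(A) tail that the assay primes from, and the histone genes include near-identical copies, so single histone values are uncertain.

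**Figure D2:**
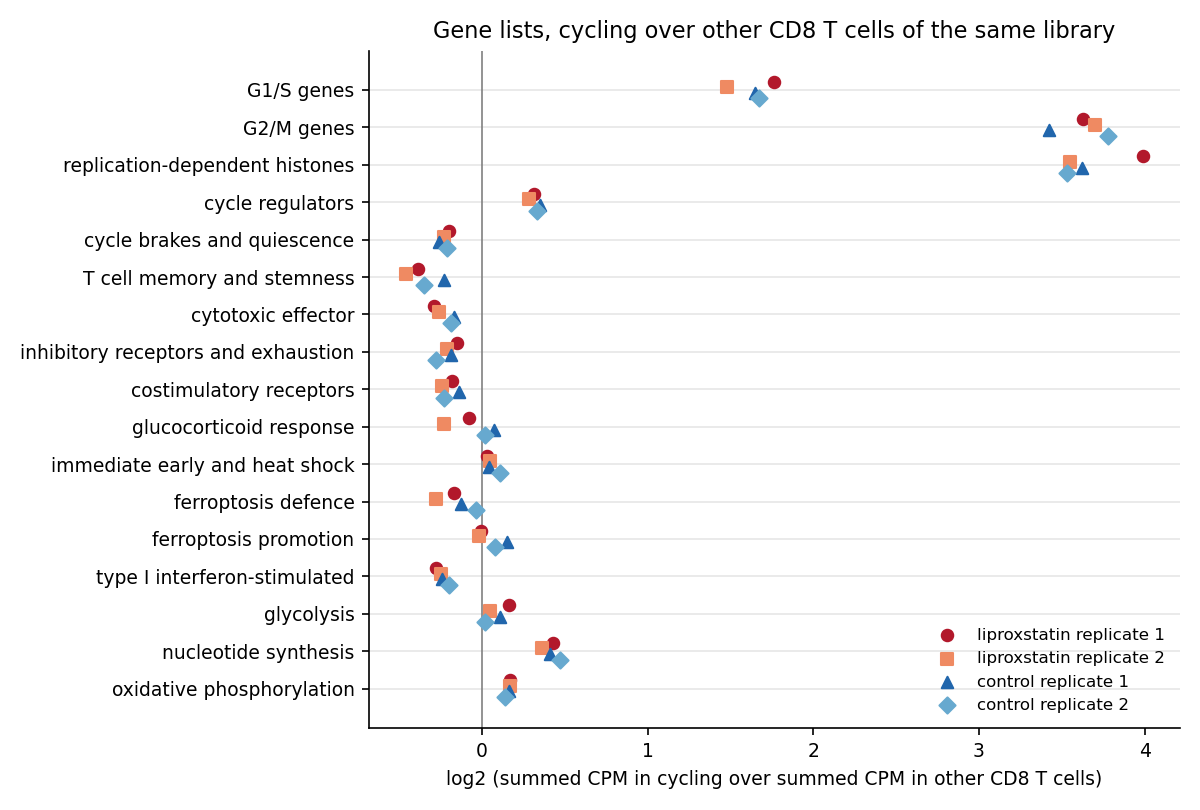
log2 of summed CPM in cycling over summed CPM in other CD8 T cells, for 17 gene lists and 4 libraries. G2/M genes and histones lie between 3.42 and 3.99, the memory, effector and inhibitory receptor lists below 0 in every library.

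No replication, mitosis or histone gene passed the test between liproxstatin and control libraries in cycling cells. None of 35 G1/S genes, 40 G2/M genes and 18 histone genes rose or fell in cycling cells (edgeR quasi-likelihood, adjusted p under 0.05). DESeq2 called none, but left 2, 1 and 5 of them without an adjusted p. At an unadjusted p under 0.05 by edgeR were 4, 1 and 6 of them, beside 757 of all 10575 genes tested. Pcna, the sliding clamp of replication, stood at 283 and 265 CPM in liproxstatin and 302 and 326 CPM in control libraries (log2 fold change -0.20 ± 0.11, SE, adjusted p = 0.802). Cdk1 stood at 146 and 167 CPM in liproxstatin and 147 and 180 CPM in control libraries (-0.07 ± 0.13, adjusted p = 0.972). Of the G1/S genes 31 of 35 were below 0, with a median of -0.11. Of the histone genes 15 of 18 were below 0, with a median of -0.22, and of the G2/M genes 21 of 40, with -0.01. The median of all 10575 genes tested was 0.00. In other CD8 T cells 28 of 35 G1/S genes (median -0.12), 10 of 12 histone genes (-0.42) and 18 of 28 G2/M genes (-0.22) were below 0. Of those 28 G2/M genes 1 was called lower, beside 33 of all 11076 genes tested there. The log2 ratio of summed G2/M to G1/S UMIs was 0.46 and 0.54 in liproxstatin and 0.32 and 0.39 in control libraries. Both liproxstatin values lay above both control values, and the difference of 0.15 had the smallest exact p that the design allows, 0.3333. In single cells thinned to 5000 UMIs, G2/M UMIs exceeded G1/S UMIs in 48.3% and 53.5% of members in liproxstatin and 47.9% and 45.5% in control libraries.

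RNA of PD-1 and granzyme B was detected in most cycling and most other CD8 T cells, and that of TCF1 in fewer. After thinning to 5000 UMIs, Pdcd1 was detected in 83.4% and 83.2% of cycling cells in liproxstatin and 75.5% and 77.3% in control libraries, against 0.4% of macrophages at that depth. In other CD8 T cells Pdcd1 was detected in 84.2% and 86.2% against 78.1% and 75.3% after thinning. Before thinning it was detected in 91.8% to 96.4% of cycling cells. Gzmb (granzyme B) was detected in 72.5% and 64.3% of cycling cells against 61.7% and 70.1% after thinning, and in 1.9% of macrophages. In other CD8 T cells it was detected in 65.5% and 61.2% against 56.3% and 69.9%. Tcf7 was detected in 4.74% and 7.07% of cycling cells against 6.38% and 5.69%, and in 7.84% and 8.82% of other CD8 T cells against 8.74% and 12.2%, so the share was lower in the cycling cells of each library, and in 0.2% of macrophages. Before thinning Tcf7 was detected in 9.42% and 10.1% of cycling cells against 13.4% and 10.4%, and an undetected gene may still be expressed.

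As a group, the memory and stemness genes were at 0.726-fold to 0.85-fold, the cytotoxic effector genes at 0.819-fold to 0.890-fold and the inhibitory receptor genes at 0.824-fold to 0.899-fold the level of other CD8 T cells, over the 4 libraries. CPM are shares of a cell's total, of which cycle and histone RNA took a larger part in cycling cells, and the part of this in the values was not tested. Within the memory list Tcf7 (-0.90 to -0.69 log2 units), Bcl2, an inhibitor of apoptosis (-0.78 to -0.66), and Cxcr3, a chemokine receptor (-1.28 to -0.93), were lower in each library. Among effector genes Ccl5, a chemokine, was lowest relative to other CD8 T cells (-1.54 to -0.94), whereas Cx3cr1, a chemokine receptor, was higher (0.27 to 0.67). Cxcr6, a chemokine receptor of tumour-resident T cells, was lower (-0.76 to -0.38), and Ikzf2, which encodes Helios, higher (0.14 to 0.32).

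Cycling cells were found with Tcf7 and with Havcr2 RNA. Among thinned CD8 T cells with a Tcf7 UMI and no Havcr2 UMI, 16.1% and 25.3% were cycling in liproxstatin and 27.3% and 16.7% in control libraries, from 22 to 83 cells. Among cells with a Havcr2 UMI and no Tcf7 UMI, 25.3% and 26.3% were cycling in liproxstatin and 40.9% and 29.4% in control libraries, from 66 to 288 cells. Among the 189 to 639 cells a library with neither, 24.4% and 31.8% were cycling in liproxstatin and 32.3% and 32.1% in control libraries, so the share did not follow Havcr2 in each library. A single cell held both UMIs and was not cycling. The intervals of the Tcf7 class were wide, such as 10.7% to 50.2% in control replicate 1, and macrophages held Havcr2 in 13.6% of thinned cells. Cells with a Pdcd1 UMI were cycling in 24.0% and 29.0% against 33.2% and 30.3%, and those without in 25.0% and 34.0% against 36.5% and 28.1%.

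The antigen receptor segment with the most cells was, for the alpha chain, the same in cycling and other CD8 T cells of each library, and 3 segments took that place over the 4 libraries. The alpha chain segment Trav3-3 was the leading one in 50% of cycling and 51.2% of other CD8 T cells of liproxstatin replicate 1. In liproxstatin replicate 2 Trav5-1 led, in 24.4% of cycling and 19.5% of other CD8 T cells. In control replicate 1 Trav3-3 led again, in 31.8% and 25.0%, and in control replicate 2 Trav7-4 in 19.0% and 20%. The shares are of the 66 to 142 cycling and 100 to 320 other CD8 T cells with a Trav UMI. A 3′ assay reaches this part of the transcript rarely, and Trav copies are alike in sequence, so single segments are uncertain.

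Over all Trav segments, the percent of cells that would have to change segment to make 2 groups equal was 18.5% and 22.4% between cycling and other CD8 T cells of liproxstatin replicates 1 and 2, and 35.8% and 18.1% in control replicates 1 and 2. Between the cycling cells of 2 libraries it was 53.1% to 71.8%. For the beta chain it was 10.9% to 24.3% within a library and 29.4% to 49.1% between libraries. These values are given with no test. Of the beta chain segments Trbv19 led in cycling cells of 3 libraries. It was found in 23.1%, 21.3% and 26.0% of cycling cells of liproxstatin replicates 1 and 2 and control replicate 1, and in 3.85% of those of control replicate 2.

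**Figure D3:**
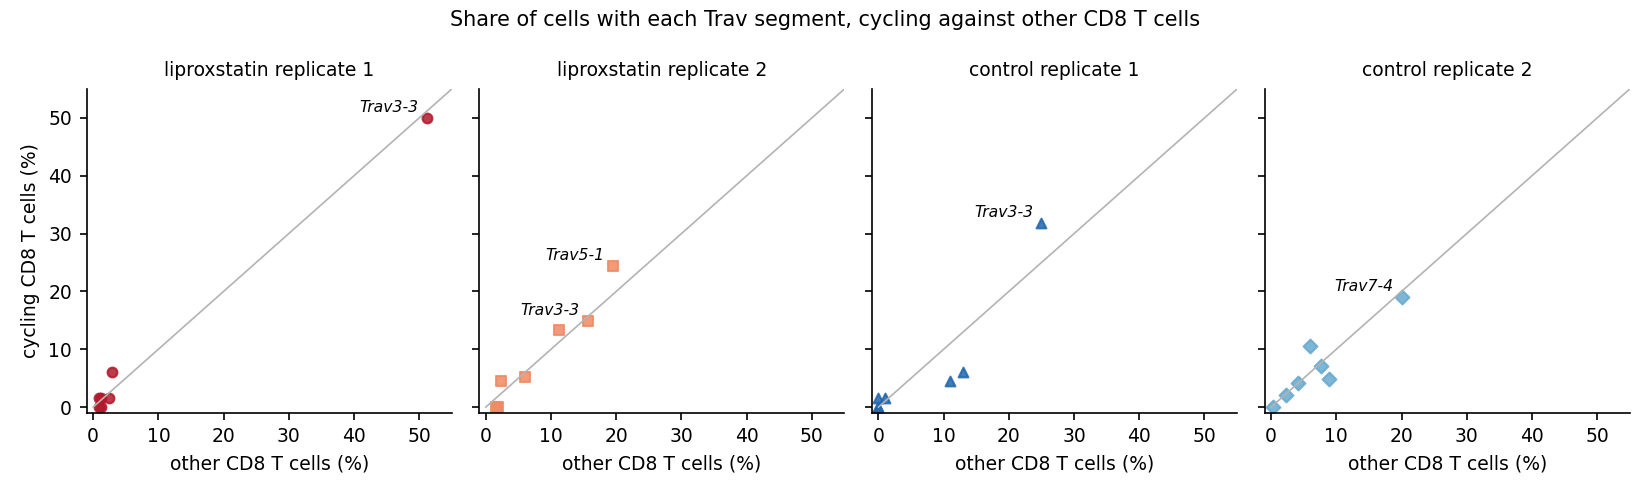
Percent of cells whose most counted alpha chain segment is the one plotted, cycling (vertical) against other (horizontal) CD8 T cells, 1 panel per library, for the 7 Trav segments that reach 10% in a group of cells. Trav3-3 leads in liproxstatin replicate 1 (50% of cycling cells) and control replicate 1 (31.8%), Trav5-1 in liproxstatin replicate 2 (24.4%) and Trav7-4 in control replicate 2 (19.0%).

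In cycling CD8 T cells of liproxstatin-treated tumours, 16 genes were higher (0.151% of 10575 tested) and 7 lower (0.0662%) than in those of control tumours, by edgeR quasi-likelihood at an adjusted p under 0.05, with 757 at an unadjusted p under 0.05. DESeq2 called 17, of which 12 were among the 23. The smallest p was that of Tsc22d3, the glucocorticoid-induced leucine zipper gene. The integrin gene Itgav, the chemokine Ccl5 and Malt1, which carries antigen receptor signals to NF-kappaB, also rose. Lin54, a DNA-binding subunit of the MuvB complex that reads the CHR element shown above, was the 1 of 22 cycle regulators that rose. Interferon-inducible Ifitm2 and Ifi206, Tyrobp (the adaptor DAP12) and the myeloid gene Wfdc17 fell.

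Tsc22d3 (ENSMUSG00000031431, chromosome X, 140539528 to 140600659, minus strand, GRCm38) stood at 166 and 145 CPM in cycling cells of liproxstatin libraries and 55.6 and 40.9 CPM in those of control libraries. The gene was detected in 82.1% and 82.1% of members against 56.7% and 54.7%. Thinned to 5000 UMIs these shares were 48.3% and 50.2% against 21.3% and 17.5%, while macrophages gave 34.7%, so the control shares lie under the share in macrophages and the part of free RNA was not tested. The log2 fold change was 1.72 ± 0.15 (SE, n = 2 per group, edgeR adjusted p = 2.65e-05), and it ran from 1.48 to 1.95 with 1 library left out, past the threshold each time. Itgav (ENSMUSG00000027087, chromosome 2, 83724397 to 83806916), the alpha V integrin chain, stood at 243 and 202 CPM against 128 and 106 CPM (0.94 ± 0.13, adjusted p = 0.00538), and also passed with each library left out.

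Ccl5 (chromosome 11, 83525778 to 83530518) stood at 634 and 670 CPM in liproxstatin and 395 and 365 CPM in control libraries (0.78 ± 0.11, adjusted p = 0.00538). In other CD8 T cells it stood at 1605 and 1283 CPM against 1147 and 1053 CPM (0.35 ± 0.11, adjusted p = 0.195). Without liproxstatin replicate 2 its adjusted p in cycling cells was 0.091. Malt1 stood at 244 and 214 CPM against 125 and 92.1 CPM (1.09 ± 0.14, adjusted p = 0.00538). Lin54 (chromosome 5, 100441918 to 100500639) stood at 68.2 and 53.0 CPM against 33.6 and 26.4 CPM (1.04 ± 0.17, adjusted p = 0.013), and at 27.8 and 23.3 CPM against 20.6 and 8.08 CPM in other CD8 T cells. Named genes had non-overlapping groups by the rule that named them.

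A further 6 named genes rose. Klf6, a zinc finger factor, stood at 440 and 365 CPM in liproxstatin and 267 and 251 CPM in control libraries (0.64 ± 0.12, adjusted p = 0.029). Cited2, a co-regulator that competes for CBP and p300, stood at 101 and 95.8 CPM against 46.8 and 64.9 CPM (0.79 ± 0.15). Cx3cr1, a receptor of effector T cells, stood at 95.9 and 77.5 CPM against 47.2 and 52.3 CPM (0.79 ± 0.14), and Dusp16, a phosphatase of MAP kinases, at 49.2 and 35.5 CPM against 22 and 19.7 CPM (1.03 ± 0.18). Ccn4, a matricellular protein gene, stood at 34.5 and 29.7 CPM against 17.6 and 11 CPM (1.24 ± 0.21), and the Wnt receptor gene Fzd4 at 6.70 and 8.78 CPM against 2.00 and 1.30 CPM (2.32 ± 0.43). Their adjusted p ran from 0.024 to 0.029. Cx3cr1 was also detected in 44.9% of macrophages thinned to 5000 UMIs, against 16.0% to 29.4% of members at that depth, and the part of free macrophage RNA in its values was not tested.

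Hspb1, a small heat shock protein gene, had the largest fitted log2 fold change of the 16, 5.71 ± 0.82 (adjusted p = 0.00967), but it rested on few cells. It had 23 and 64 UMIs in liproxstatin and 0 and 1 UMIs in control libraries, and 1 cell held 59 of the 64 and another 13 of the 23. The pooled ratio was 64.1 with a counting interval of 11.2 to 2560. With Scrublet-marked cells left out the log2 fold change was 5.45 at an adjusted p of 0.59. Without liproxstatin replicate 2 it was 0.339 at a log2 fold change of 4.94. Without control replicate 2 the remaining control library has 0 UMIs, so the fitted 8.14 is no measured change.

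Outside the naming rule, and chosen after their values were seen, Cebpb (0.99 ± 0.16), Pik3r1 (0.73 ± 0.14), Pmaip1 (0.85 ± 0.17) and Tmem176b (1.51 ± 0.30) complete the 16 higher genes, and 1700097N02Rik (-0.66 ± 0.12) the 7 lower ones.

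Of the named genes 6 fell. Ifitm2, of the interferon-induced transmembrane proteins, stood at 362 and 383 CPM in liproxstatin and 559 and 558 CPM in control libraries (-0.58 ± 0.11, adjusted p = 0.029), and Ifi206 at 3.98 and 3.72 CPM against 14 and 10.1 CPM (-1.59 ± 0.30, adjusted p = 0.0324). Ifi206 and Ifitm2 belong to families of similar genes, whose reads may be split among copies. Tyrobp stood at 83.3 and 66.4 CPM against 109 and 127 CPM (-0.67 ± 0.13, adjusted p = 0.0473). Wfdc17 stood at 17.4 and 23.8 CPM against 45.2 and 49.3 CPM (-1.19 ± 0.18, adjusted p = 0.00664). Gng11, a G protein gamma subunit, stood at 4.81 and 3.89 CPM against 10.8 and 19.9 CPM (-1.89 ± 0.31, adjusted p = 0.014), and Igfbp2, which binds insulin-like growth factors, at 0.628 and 0.169 CPM against 7.2 and 3.91 CPM (-3.71 ± 0.70, adjusted p = 0.029).

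For Gng11 1 cell held 16 of the 27 UMIs of control replicate 1 and 26 of the 107 UMIs of control replicate 2. For Igfbp2 that is 3 and 1 UMIs against 18 and 21 UMIs, of which 1 cell held 17 of the 21. A single cell held 30.6% to 38.3% of the Wfdc17 UMIs in 3 of the 4 libraries, and with Scrublet-marked cells left out its log2 fold change was -0.82 (adjusted p = 0.565). With equal cells per library it was -0.38 (adjusted p = 0.813). Macrophages also express Tyrobp and Wfdc17. Without C1qa, C1qb and C1qc, the macrophage list summed to 656 and 450 CPM in liproxstatin and 616 and 817 CPM in control members. Its part in these results was not tested. With only cells under 10 macrophage UMIs per 10000, an alternative chosen after seeing the data, 79 genes passed and 22 of the 23 were among them.

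The count of 23 depended on single libraries. It was 14 without liproxstatin replicate 1, 7 without liproxstatin replicate 2, 270 without control replicate 1 and 97 without control replicate 2, where the lone library of a group is assumed to vary like the others. Of the 18 named genes 4 passed without liproxstatin replicate 1 (Tsc22d3, Itgav, Ccl5 and Hspb1) and 3 without liproxstatin replicate 2 (Tsc22d3, Itgav and Wfdc17). Without control replicate 2, 14 passed, all but Ccn4, Fzd4, Gng11 and Tyrobp, and without control replicate 1 all 18 did. No sign changed in these fits.

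**Figure D4:**
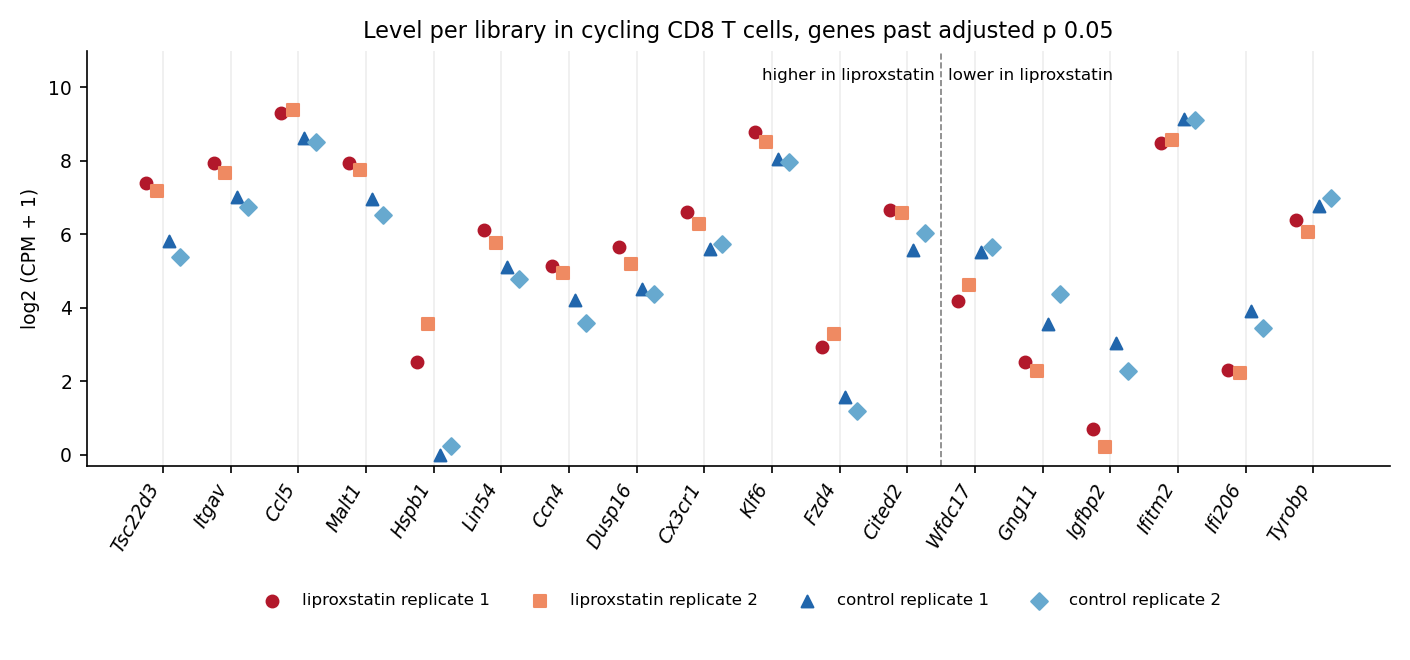
log2 (CPM + 1) in cycling CD8 T cells of each library for the 12 named genes that were higher and the 6 that were lower in liproxstatin libraries. The genes were named on condition that the groups do not overlap, and Tsc22d3 lies at 166 and 145 CPM against 55.6 and 40.9 CPM.

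Of the glucocorticoid response list 1 gene passed. Of its 17 tested genes 16 were above 0, with a median log2 fold change of 0.58, while the median over all genes was 0.00 with 5210 of 10575 above 0. Only Tsc22d3 rose (edgeR), and DESeq2 called Tsc22d3 and Zfp36l2. At an unadjusted p under 0.05 were 10 genes, beside 757 of all 10575 genes tested. In other CD8 T cells all 17 tested genes of the list were above 0, with a median of 0.74 and 3 called by edgeR. Zfp36l2, which destabilises mRNAs, stood at 1162 and 980 CPM in liproxstatin and 268 and 174 CPM in control libraries (2.29 ± 0.24, adjusted p = 0.0808, edgeR). Dusp1, a phosphatase that shuts off MAP kinases, stood at 332 and 352 CPM against 167 and 93.4 CPM (1.42 ± 0.36, adjusted p = 0.611). Neither overlapped between groups, which is no test with 2 libraries a group, and neither passed by edgeR. The immediate early and heat shock list had 17 of 23 genes above 0 and a median of 0.23, with Hspb1 as its 1 call. Fosl2, an AP-1 factor, stood at 233 and 142 CPM in liproxstatin and 193 and 49.5 CPM in control libraries, and Hspa1a, a heat shock protein gene, at 92.7 and 99.3 CPM against 87.2 and 7.07 CPM. Both were lowest in control replicate 2.

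The genes of ferroptosis, the iron-dependent cell death that the drug inhibits, gave no call in the members. Of 22 defence genes tested none rose or fell and none had an unadjusted p under 0.05, with a median of 0.02. DESeq2 called none, but left 8 of the 22 without an adjusted p, and these could not be called. Gpx4, the peroxidase that removes lipid peroxides, stood at 275 and 299 CPM in liproxstatin and 257 and 301 CPM in control libraries (0.04 ± 0.12, adjusted p = 0.988). Slc7a11, the cystine importer, stood at 2.93 and 2.37 CPM against 1.2 and 4.09 CPM, and Fth1, the ferritin heavy chain, at 2037 and 1808 CPM against 1492 and 1903 CPM (0.18 ± 0.12, adjusted p = 0.858). Of 17 promotion genes none rose or fell in the members, and 2 had an unadjusted p under 0.05 (757 of all 10575 genes did). DESeq2 called none there, with 6 of the 17 left without an adjusted p. In other CD8 T cells no defence gene was called, and 1 of 17 promotion genes rose, beside 113 of all 11076 genes tested. At an unadjusted p under 0.05 were 5 of these 17, beside 1274 of all 11076. The values that follow are those of the members. Acsl4, which loads polyunsaturated fatty acids, stood at 61.1 and 42.6 CPM against 56.8 and 52.1 CPM, and Tfrc, the transferrin receptor, at 79.3 and 68.8 CPM against 62.8 and 48.9 CPM (0.42 ± 0.15, adjusted p = 0.495).

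Of 29 cytotoxic effector genes Ccl5 and Cx3cr1 rose and none fell (11 at an unadjusted p under 0.05, beside 23 called and 757 unadjusted of all 10575 genes), with a median of -0.10, and DESeq2 called Gzme and Gzmg as well, both lower. The granzyme cluster beyond Gzmb was dominated by few cells. Gzmf stood at 660 and 624 CPM in liproxstatin and 950 and 1952 CPM in control libraries (-1.18 ± 0.48, adjusted p = 0.838), and 1 cell held 26.9% of its UMIs in control replicate 2. Of Gzmg UMIs in control libraries 1 cell held 89.0% in replicate 1 and 87.8% in replicate 2. These granzymes are similar in sequence. Gzmb stood at 807 and 837 CPM in liproxstatin and 974 and 1061 CPM in control libraries (-0.31 ± 0.11, adjusted p = 0.495), and Ifng, the interferon gamma gene, at 278 and 292 CPM against 304 and 329 CPM.

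Of 19 inhibitory receptor genes none rose or fell, 5 had an unadjusted p under 0.05 (757 of all 10575 genes did) and the median was 0.13. DESeq2 called none of the 19, with 2 left without an adjusted p. Pdcd1 stood at 553 and 503 CPM in liproxstatin and 472 and 323 CPM in control libraries (0.41 ± 0.17, adjusted p = 0.687), and Ctla4 at 365 and 266 CPM against 195 and 103 CPM (1.10 ± 0.47, adjusted p = 0.841). Of 16 costimulatory receptor genes none passed by edgeR, 4 had an unadjusted p under 0.05 and the median was 0.14. Cd28, the main costimulatory receptor, stood at 282 and 247 CPM against 195 and 133 CPM (0.70 ± 0.17, adjusted p = 0.289), and was called by DESeq2. Of 17 memory and stemness genes none passed by edgeR and 6 had an unadjusted p under 0.05. DESeq2 called Cd28 among the 17 and left 8 of them without an adjusted p. Il7r, the interleukin 7 receptor, stood at 78.7 and 84.8 CPM against 63.6 and 62.3 CPM (0.38 ± 0.13, adjusted p = 0.484).

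Metabolic and interferon lists gave no call in the members. The type I interferon list had 18 of 23 genes below 0 with a median of -0.24 and 1 gene at an unadjusted p under 0.05. None passed by DESeq2, which left 9 of the 23 without an adjusted p. Isg15, a ubiquitin-like interferon product, was highest in control replicate 1, at 64.1 and 81.1 CPM in liproxstatin and 149 and 71.1 CPM in control libraries. Oxidative phosphorylation genes were below 0 in 26 of 30 with a median of -0.11 (5 at an unadjusted p under 0.05, DESeq2 none). Glycolysis had a median of 0.08 over 18 genes and nucleotide synthesis -0.05 over 20, each with 2 genes at an unadjusted p under 0.05. For both lists DESeq2 called none, and it left 1 and 4 genes without an adjusted p. Of 20 cycle brake genes none passed, 3 had an unadjusted p under 0.05 and the median was 0.08. By DESeq2 none passed either, with 5 of the 20 left without an adjusted p. Cdkn1b, the p27 inhibitor of cyclin-dependent kinases, stood at 144 and 119 CPM in liproxstatin and 99.9 and 78.2 CPM in control libraries (0.58 ± 0.14, adjusted p = 0.144).

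Of the genes called in cycling cells, 19 pointed the same way in the other CD8 T cells of the same libraries. In those, 113 genes were higher (1.02% of 11076 tested) and 33 lower (0.298%). Of the 23 genes called in cycling cells 22 were tested there, 19 had the same sign and 10 were called, which is 43.5% of the 23 and 6.85% of the 146 called in other CD8 T cells. Both sets come from the same mice and libraries and are not independent. The cycling sums held 97 to 307 cells a library and the other sums 189 to 738. The share with the same sign over all genes tested is not given here. Tsc22d3 changed by 1.74 ± 0.12, Itgav by 0.92 ± 0.13, Malt1 by 0.97 ± 0.13 and Cx3cr1 by 0.77 ± 0.14 in other CD8 T cells, each called, and their differences of response were 0.02, 0.01, 0.14 and 0.00. Others of the 23 differed more, such as Igfbp2 (-5.34), Hspb1 (4.07), Tmem176b (1.60), Fzd4 (1.09) and Gng11 (-0.89), none past the threshold. Tmem176b changed by 1.51 in cycling and -0.09 in other CD8 T cells, and Ifitm2 by -0.58 and 0.05.

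The difference itself, tested with the library as a block in 1 fit of both sets of cells, passed for 41 of 11137 genes (0.368%), of which 10 had a higher and 31 a lower log2 fold change in cycling than in other CD8 T cells (740 at an unadjusted p under 0.05, and 4 called by DESeq2). Tyrobp was the 1 of the 23 among them. It fell in cycling cells and had a log2 fold change of 0.30 ± 0.13 in other CD8 T cells, at 162 and 155 CPM in liproxstatin and 108 and 139 CPM in control libraries, a difference of -0.97 (adjusted p = 6.58e-06). Lyz2, the lysozyme of macrophages, stood at 359 and 277 CPM against 405 and 522 CPM in cycling cells and at 812 and 599 CPM against 347 and 487 CPM in other CD8 T cells, a difference of -1.25 (adjusted p = 1.28e-12). Fos, an immediate early factor, differed by -0.90 (adjusted p = 0.000261). In other CD8 T cells Fos stood at 259 and 201 CPM against 114 and 91.4 CPM, while in cycling cells it stood at 163 and 124 CPM against 162 and 95.3 CPM.

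Lyz2 is the largest part of the macrophage list, which summed to 1183 and 873 CPM in liproxstatin and 641 and 679 CPM in control libraries of other CD8 T cells, and to 656 and 450 CPM against 616 and 817 CPM in cycling cells. Of its other members Csf1r had a difference of -1.09 (adjusted p = 0.193) and Fcgr1 of -1.08 (0.67). C1qa, C1qb and C1qc, which the rule limits and the sums leave out, had 0.00, 0.15 and -0.08. With only cells under 10 macrophage UMIs per 10000, Lyz2 differed by 0.01 (adjusted p = 0.997), Tyrobp by -0.31 (0.562) and Fos by -0.46 (0.949). That limit counts Lyz2 UMIs, so cells were left out by their own Lyz2 level and its value is no separate test. With Scrublet-marked cells left out 3 genes passed, and with no library block 0 did, with 287 at an unadjusted p under 0.05.

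The desmosomal gene Dsc2 had a log2 fold change higher by 3.19 in cycling than in other CD8 T cells (adjusted p = 6.74e-05), at 13.6 and 6.59 CPM against 6.40 and 2.98 CPM in cycling cells and 4.06 and 2.33 CPM against 9.95 and 12.5 CPM in other CD8 T cells. Gzmc, a granzyme, differed by 0.83 (adjusted p = 0.000288), at 201 and 177 CPM against 78.0 and 485 CPM in cycling cells and 73.8 and 82.1 CPM against 49.8 and 362 CPM in other CD8 T cells. In cycling cells of liproxstatin replicate 1 a single cell held 513 of 960 Gzmc UMIs. Prkg2 (-5.74) and Tm4sf1 (-3.03) rested on single cells, which held 27 of 27 and 230 of 232 UMIs in cycling cells of liproxstatin replicate 2 and 48 of 50 and 142 of 147 in those of control replicate 2. Without control replicate 2 the adjusted p of the difference was 0.417 for Prkg2, 0.0798 for Gzmc and 1.0 for Tm4sf1, whose sign then turned.

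**Figure D5:**
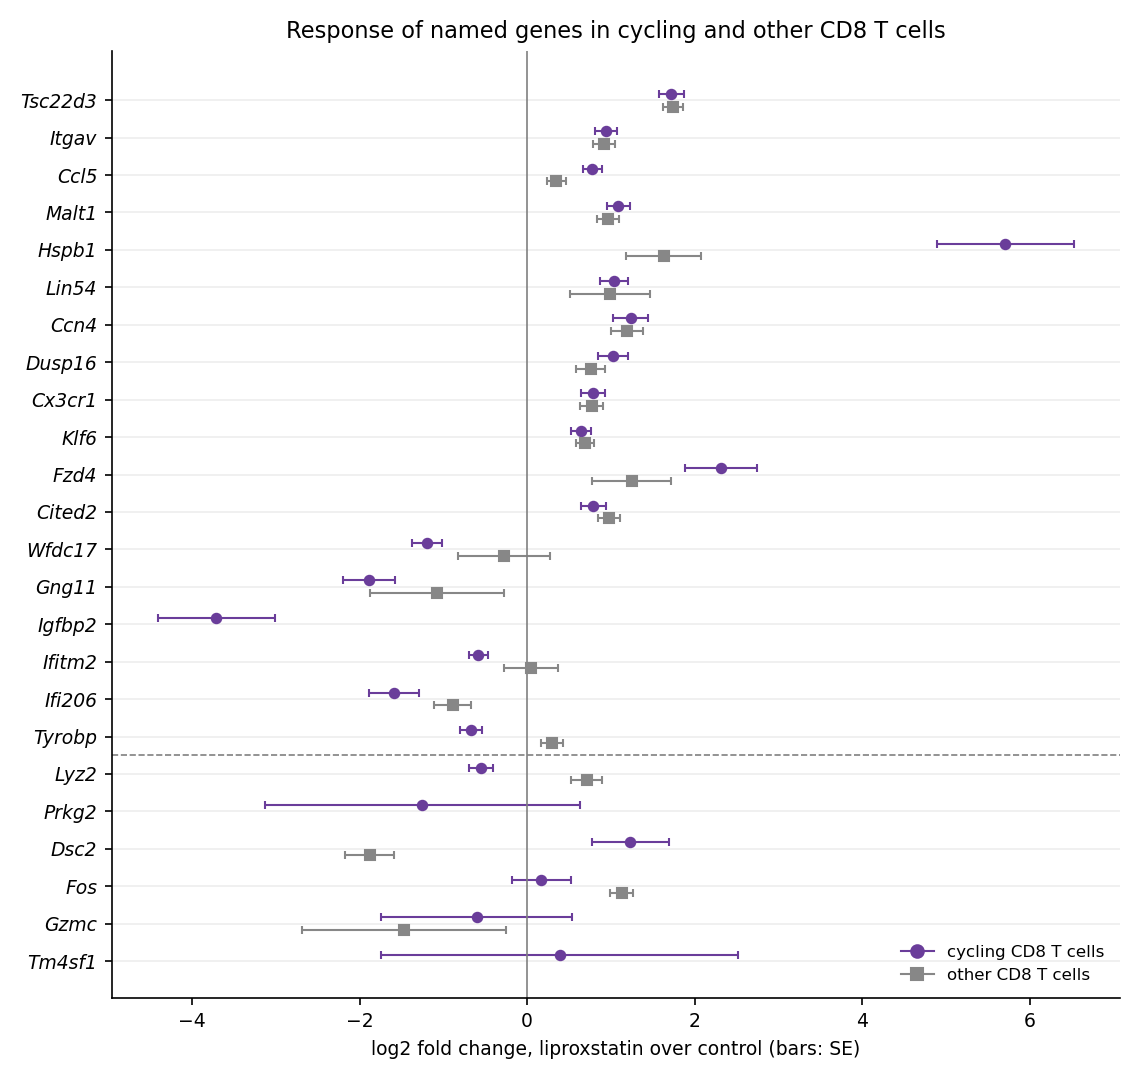
log2 fold change of liproxstatin over control with its SE in cycling (purple) and other (grey) CD8 T cells, for the 18 genes named for the change in cycling cells (above the dashed line) and the others named for a difference of response (below it). Tsc22d3 sits at 1.72 and 1.74, Tyrobp at -0.67 and 0.30. A gene with no grey point was not tested in other CD8 T cells.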

How the data were processed

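Single-cell RNA-seq libraries of CD45-selected cells from CT26 tumours, 2 of liproxstatin-treated and 2 of control mice, were analysed. The deposited values are UMI counts per gene and barcode for 32285 genes, with barcodes already called as cells. Per the file headers the authors used Cell Ranger 6.1.1, while the submitters' processing notes name version 4 and mm10. Cells with at least 200 genes and at most 15% mitochondrial UMIs were kept, and cell groups were rebuilt from marker genes, since no annotation of cells was used here. Free RNA was not removed. Scrublet (through scanpy 1.11.5) scored cells as doublets. The top-scoring cells of each library, 0.8% per 1000 barcodes, were marked and kept, so the number marked was set by the barcode count.

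Counts were summed per library over cycling and over other CD8 T cells and tested with edgeR 4.0.16 (R 4.3.3; filterByExpr, TMM, robust quasi-likelihood, Benjamini-Hochberg adjusted p under 0.05 over all genes tested). The difference of response was fitted with the library as a block. SE is the log2 fold change over the root of F. DESeq2 1.42.0 was an alternative, with adjusted p that it leaves missing kept missing. Shares were compared with a two-sided exact permutation test over libraries (scipy 1.17.1). The statistics were tested on simulated data. Members summed to 4777767 and 5919945 UMIs in liproxstatin and 2501403 and 5374493 UMIs in control libraries. Positions are from GENCODE M21 and promoters from RefSeq, both on GRCm38.

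The members and lists were chosen with earlier results of these data known. Named genes were the 12 of smallest p among those that rose and among those that fell, with groups not overlapping, the 8 of smallest p for the difference of response, and up to 4 of each list by role beside those that passed. Of the genes that this choice named for the difference of response, 1 is not reported here. Genes of the rule, Gm-numbered, Rik, ribosomal, mitochondrial and receptor segment genes were left out of that choice. Alternatives were DESeq2, other size factors, no filter on low counts, the replicate number as a block, each library left out, doublets left out, equal cells per library, other thresholds, a mitochondrial limit of 10%, thinned totals and, chosen after seeing the data, cells with few macrophage UMIs.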

Additional observations from a re-analysis of the deposited data

Results flagged for a closer look

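The response to liproxstatin differed between cycling and other CD8 T cells, by edgeR's test of the difference itself, for 7 named genes. Of these 7, 2 also passed with the replicate number as a block, 2 by DESeq2, 1 with doublets left out and 0 with no library block. Values are the log2 fold change in cycling minus that in other CD8 T cells. Lyz2 differed by -1.25 and Tyrobp by -0.97. Beside these 2 macrophage-expressed genes, the macrophage list summed to 656 and 450 CPM in liproxstatin and 616 and 817 CPM in control libraries of cycling cells, and to 1183 and 873 CPM against 641 and 679 CPM in other CD8 T cells. Lyz2 is itself the largest part of those sums. All 6 tested genes of the list had a log2 fold change below 0 in cycling cells and above 0 in other CD8 T cells. The sums leave out C1qa, C1qb and C1qc, which had differences of 0.00, 0.15 and -0.08. The rule limits these 3 genes in both sets of cells, so their values are no separate test. Fos differed by -0.90. Dsc2 differed by 3.19 and Gzmc by 0.83. Prkg2 differed by -5.74 and Tm4sf1 by -3.03, with 1 cell holding 100% and 96.0% of the Prkg2 UMIs and 99.1% and 96.6% of the Tm4sf1 UMIs of cycling cells in liproxstatin replicate 2 and control replicate 2.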

How the results depend on the processing

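The 23 genes changed in cycling cells became 164 with no filter on low counts, 49 with doublets left out, 9 with equal cells per library, 14 at a threshold of 4 per 10000, 11 with thinned totals, 79 with few macrophage UMIs (chosen after seeing the data) and 7 to 270 with 1 library left out. The 146 genes in other CD8 T cells became 72 by DESeq2, 422 with no filter, 81 with equal cells and 31 to 245 with 1 library left out. The 41 differences of response became 4 by DESeq2, 98 with no filter, 3 with doublets left out, 24 at a threshold of 1, 0 with no library block and 26 to 91 with 1 library left out. The cycling share difference was -6.92 to -2.16 points with 1 library left out and turned to 0.271 points as a share of all kept cells. The difference of the log2 G2/M to G1/S ratio was 0.11 to 0.19 with 1 library left out. The difference of response turned sign for Lyz2 with few macrophage UMIs (0.01), a limit that counts Lyz2 itself. It also turned for Gzmc with doublets left out (-0.16). For Tm4sf1 it turned with doublets left out (2.26) and without control replicate 2 (range with 1 library left out -3.71 to 1.40). The causes were not tested. Of the 18 genes named in cycling cells, 16 passed with doublets left out, 5 with equal cells, 12 and 9 at thresholds of 1 and 4, and 10 by DESeq2, which missed 3 and gave the others no adjusted p, with no change of sign in these settings.

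The labels do not say that equal replicate numbers share a day or litter, and same-numbered libraries deviated together with r = 0.0875. With the replicate number as a block, 61 genes changed in cycling cells, 22 of the 23 among them, 162 in other CD8 T cells, and 3 differed in response. The share difference under that pairing was -4.54 points and the ratio difference 0.15.

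With 2 libraries a group, shares of cells cannot reach an exact p under 0.3333. Control replicate 1 held 97 cycling cells, the fewest.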
